A study of Mus musculus with 2 samples.

Results

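Atrioventricular canal cardiomyocytes are the heart muscle cells of the narrow segment between the atria and the ventricles of the embryonic heart. They were taken here as cells with at least 8 Ttn UMIs and under 60 Myl2 UMIs per 10000, at least 2 UMIs of Tbx2, Tbx3 and Bmp2 summed, and 0 UMIs of Shox2. A UMI is 1 counted RNA molecule. The rule found 136 cells among the 1288 Ttn-positive cells and the 10039 cells of both libraries that passed the filters. Of these, 108 of 640 Ttn-positive cells came from the library labelled knockout and 28 of 648 from the library labelled wildtype. Measured values of the 6 genes chose the members, so the levels of these genes are a description and support nothing.

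The study measured single-cell RNA in mouse hearts at stage E10.5, to ask what loss of the spindle checkpoint protein BubR1, made from the gene Bub1b, does to the heart. One library came from hearts of genotype BubR1fl/fl and the other from hearts of genotype BubR1+/+, with a single allele of Nkx2.5-cre in each; the Nkx2-5 locus drives this Cre in early heart progenitors, so floxed genes are deleted in them and in their progeny. Each library pooled 4 hearts and was made with the 10x Chromium 3' kit. There was 1 library per genotype, so no difference between the genotypes has a replicate check, no test was run, and the genotype and the library cannot be told apart. Bounds in square brackets are 95% intervals for the counting error alone, which are too narrow for the spread between hearts.

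The canal conducts the impulse slowly, which delays the beat of the ventricles behind that of the atria, and its descendants include part of the atrioventricular node. Bmp2 from this muscle switches on the T-box repressors Tbx2 and Tbx3, which keep chamber genes such as the natriuretic peptide gene Nppa and the connexin genes Gja1 and Gja5 off in the canal. The canal muscle also signals to the endocardium inside it, through Bmp and Tgfb ligands and a hyaluronan-rich matrix, to form the cushions from which the valves grow. Rspo3 encodes a secreted protein that strengthens Wnt signals and serves here as the canal marker that the rule did not use.

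The Nppa promoter shows the kind of site through which T-box factors act, and it is printed because Nppa RNA was lower in the canal cells than in the other low-Myl2 cardiomyocytes of both libraries. The sequence is from RefSeq (build GRCm38.p6, chr4:148000472-148000721, plus strand, the 250 bases before the start of the gene), with the T-box motif in capitals.
Nppa promoter: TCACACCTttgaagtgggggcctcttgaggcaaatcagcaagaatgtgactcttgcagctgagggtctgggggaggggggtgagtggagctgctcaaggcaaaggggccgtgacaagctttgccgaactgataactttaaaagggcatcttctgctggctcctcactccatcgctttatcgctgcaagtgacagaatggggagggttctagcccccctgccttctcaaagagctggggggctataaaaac
The motif searched was AGGTGTGA on both strands, which reads TCACACCT on the strand printed. It occurred in 419 of 32851 promoter windows (1.28%), and among 14 chamber genes with a window it occurred in that of Nppa alone. A match of letters is a description and shows no binding.

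The deposited files held 130039314 UMIs in the library labelled knockout and 122834180 in the library labelled wildtype. The 108 knockout members held 2744805 UMIs, with a median of 21823 UMIs and 5142.5 genes per cell, against 368716 UMIs in the 28 wildtype members, with medians of 9009 UMIs and 3378.5 genes. Hemoglobin made up 1.05% of the UMIs of knockout members and 4.05% of those of wildtype members, and red cell RNA is present as free RNA in both libraries. The libraries shared 4 cell barcodes, none of them a member. The deepest wildtype member alone held 15.4% of the wildtype members' UMIs, and the deepest knockout member 3.46% of the knockout members'. Levels are in CPM, the UMIs of a gene per 1000000 UMIs summed over the cells of a group.

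Bub1b (ENSMUSG00000040084, mm10 chromosome 2, 118598211 to 118641591) stood at 41.5 CPM [34.3, 49.9] in knockout members (114 UMIs) and 57.0 CPM [35.3, 87.1] in wildtype members (21 UMIs). The log2 ratio was -0.46 [-1.14, 0.29], and its interval held 0. In cardiomyocytes with at least 60 Myl2 UMIs per 10000, called high-Myl2 below, the same ratio was -1.14 [-1.40, -0.90]. In cells thinned to equal UMI totals, Bub1b was detected in 12.1% [8.58, 16.4] of knockout and 21.8% [17.9, 26.1] of wildtype high-Myl2 cells. In cells with macrophage markers, thinned likewise, it was detected in 12.3% [7.71, 18.4] of knockout and 25% [19.6, 31.03] of wildtype cells. The lower share in the library labelled knockout was therefore not particular to heart muscle. The labels do not say which part of the gene is floxed, and a 3' tag outside the deleted part would not report its loss, so Bub1b RNA is no direct measure of recombination here.

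The label was checked against markers. All 8 cardiomyocyte markers (Tnnt2, Actc1, Myl7, Myl4, Tnni3, Actn2, Nkx2-5 and Myh6) were detected in the members of both libraries, with medians of 301 summed UMIs per 10000 in knockout members and 336 in wildtype members. Rspo3 was detected in 81 of 108 knockout members and 11 of 28 wildtype members. After every cell was thinned to 5000 UMIs the shares were 62.0% [52.2, 71.2] of knockout members and 14.8% [4.19, 33.7] of wildtype members. In cells with macrophage markers, which should lack the gene, they were 1.23% in the library labelled knockout and 1.69% in the library labelled wildtype. Rspo3 also marks outflow tract muscle, as do Sema3c and Bmp4, and the canal and the outflow tract are not separated by this rule. The outflow markers Isl1, Tdgf1, Rspo3, Sema3c, Nrp2 and Bmp4 together reached 623 CPM in knockout members and 323 CPM in wildtype members, where Tdgf1 was at 0. In the other low-Myl2 cardiomyocytes, defined below, they reached 289 CPM in knockout and 113 CPM in wildtype cells. In high-Myl2 cells they reached 166 CPM in knockout and 70.0 CPM in wildtype cells, so the members held the most. The word canal below means the cells of this rule, which can include outflow muscle.

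Some members also carried markers of other cell types. At least 3 cushion mesenchyme markers at 5 or more UMIs per 10000 were found in 27 knockout members and 5 wildtype members. Epicardial markers did so in 25 knockout members and 1 wildtype member, endothelial and endocardial markers in 4 knockout members and 4 wildtype members, smooth muscle markers in 1 knockout member and 3 wildtype members, and hepatic markers in 2 knockout members and 0 wildtype members. In all, 33 of 108 knockout members and 9 of 28 wildtype members had such markers of at least 1 class other than red cells. The highest doublet scores would take out 23 knockout and 5 wildtype members. What these cells contribute to the results below was not tested beyond the values given without them.

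The members differed in which genes brought them in. In knockout members Bmp2 was detected in 85, Tbx2 in 60 and Tbx3 in 58 of 108 cells, and all 3 genes in 19. In wildtype members Bmp2 was detected in 17, Tbx2 in 19 and Tbx3 in 9 of 28 cells, and all 3 genes in 3. The summed UMIs of the 3 genes had a median of 3.5 and a maximum of 35 in knockout members, against a median of 3 and a maximum of 12 in wildtype members. Exactly 2 UMIs, the least the rule allows, were held by 33 knockout members and 13 wildtype members.

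Members with a T-box UMI held more Rspo3 than those brought in by Bmp2 alone. In the library labelled knockout, Rspo3 stood at 425 CPM in 65 members with Bmp2 and Tbx2 or Tbx3, at 377 CPM in 23 members with Tbx2 or Tbx3 only, and at 212 CPM in 20 members with Bmp2 only. In the library labelled wildtype these levels were 109, 138 and 18.8 CPM over 11, 11 and 6 cells, the last from 1 UMI. The order of the first 2 groups differed between the libraries. Sema3c was instead highest in members with Bmp2 only, at 184 CPM in knockout and 301 CPM in wildtype members. Bmper was lowest in members with Bmp2 only in both libraries. Rgs6 was lowest there in the library labelled knockout (335 CPM) and highest there in the library labelled wildtype (1431 CPM).

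At the edges of the rule the members blended into their neighbours. Per cell, Rspo3 had a median of 3.13 UMIs per 10000 in the 33 knockout cells with exactly 2 marker UMIs, 0.73 in the 64 cells just outside with 1, and 0 in 120 cells with none. In the library labelled wildtype all 3 medians were 0, over 13, 25 and 152 cells. Of the knockout members 12 lay between 50 and 60 Myl2 UMIs per 10000 and 9 cells between 60 and 70, against 1 and 3 wildtype cells. Ttn lay between 8 and 10 UMIs per 10000 in 4 knockout members and 1 wildtype member.

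The members made up 16.9% [14.1, 20.01] of Ttn-positive cells in the library labelled knockout and 4.32% [2.89, 6.18] in the library labelled wildtype. The rule asks for a fixed number of UMIs, and Ttn-positive cells had medians of 19677.5 UMIs in the library labelled knockout and 14592.5 in the library labelled wildtype, so depth can set part of this share. With the rule applied to cells thinned to 5000 UMIs, 49 of 631 knockout cells (7.77% [5.80, 10.1]) and 10 of 622 wildtype cells (1.61% [0.77, 2.94]) remained. The intervals of the libraries did not overlap under either rule. The shares describe 2 libraries of dissociated, pooled hearts, not the size of the canal.

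Tbx2, Tbx3 and Rspo3 were also found more often outside the members in the library labelled knockout. In thinned high-Myl2 cells, which were not chosen on them, Tbx3 was detected in 7.27% [4.55, 10.9] of 289 knockout cells and 0.73% [0.15, 2.13] of 409 wildtype cells. Tbx2 was detected in 6.23% [3.73, 9.67] and 0.73% [0.15, 2.13] of the same knockout and wildtype cells, and Rspo3 in 16.6% [12.5, 21.4] and 6.85% [4.60, 9.74]. In macrophage-marked cells Tbx3 and Tbx2 were each detected in at most 0.62% of either library. Bmp2 was detected in 5.88% [3.46, 9.25] of knockout and 3.18% [1.70, 5.37] of wildtype high-Myl2 cells, with intervals that overlapped, and in 2.47% of knockout and 15.3% of wildtype macrophage-marked cells.

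**Figure D1:**
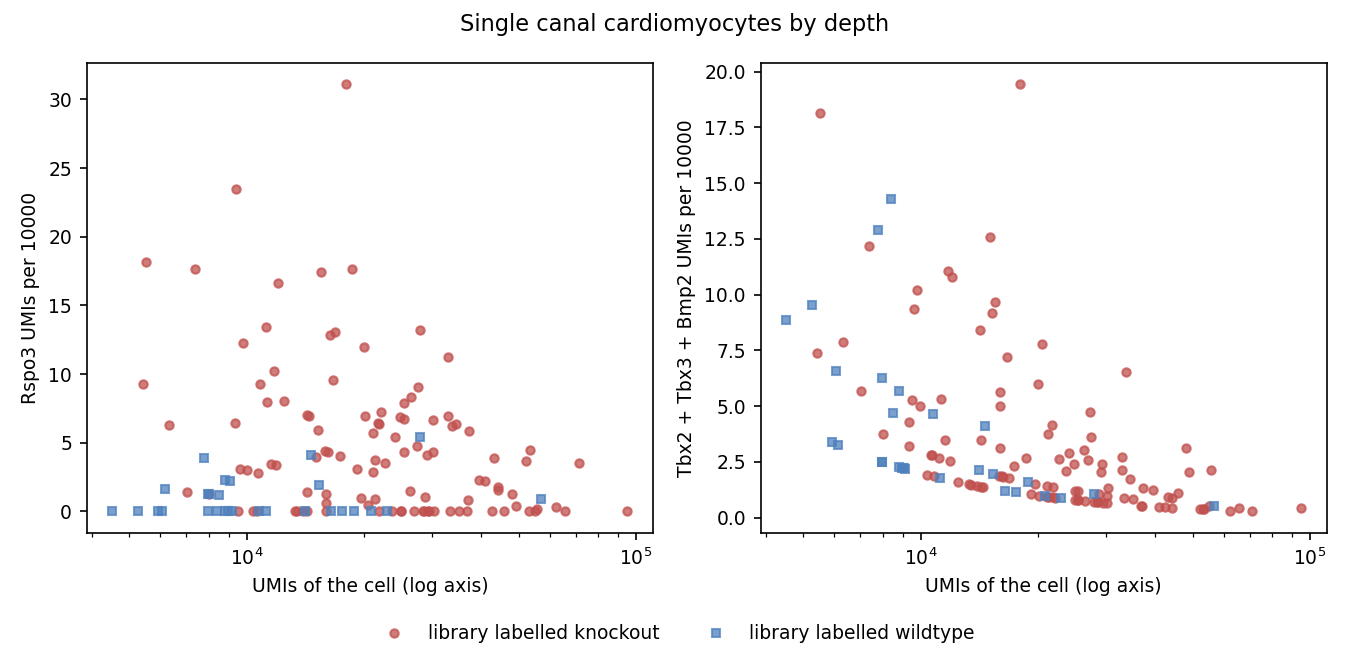
Each point is 1 canal cardiomyocyte (circles, library labelled knockout; squares, library labelled wildtype), with its UMI total on a log axis and, per 10000 UMIs, Rspo3 on the left and the sum of Tbx2, Tbx3 and Bmp2 on the right. The lower edge on the right falls with depth because the rule asks for 2 UMIs, and the knockout members reach 31.1 Rspo3 UMIs per 10000 against 5.39 in wildtype members.

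Canal cells were next set against the other low-Myl2 cardiomyocytes of their own library, those with the same Ttn and Myl2 limits, no Shox2 and fewer than 2 UMIs of the 3 marker genes (184 knockout and 177 wildtype cells). The rule did not use the genes below. Of 7343 genes with at least 50 UMIs in each library's comparison, 18 (0.245%) were at least 2-fold higher in the members in both libraries and 16 (0.218%) at least 2-fold lower. The median gene lay at a log2 ratio of 0.03 in the library labelled knockout and -0.001 in the library labelled wildtype.

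Chamber genes were lower in canal cells of both libraries. Of 17 chamber genes listed, 15 reached the minimum. Of the 15, 6 were at least 2-fold lower in both libraries and none at least 2-fold higher, against 0.218% and 0.245% of all genes. Nppa, Nppb, Gja1, Gja5 and Cited1 were among the 6. The list's median log2 ratio of members over other low-Myl2 cells was -0.72 in the library labelled knockout and -0.61 in the library labelled wildtype. Nppa, which encodes atrial natriuretic peptide, stood in the library labelled knockout at 176 CPM [160, 192] in members and 835 CPM [808, 863] in the other low-Myl2 cells. In the library labelled wildtype it stood at 827 CPM [737, 925] in members and 5430 CPM [5342, 5520] in the other low-Myl2 cells. The log2 ratios were -2.25 [-2.39, -2.11] in the library labelled knockout and -2.71 [-2.88, -2.55] in the library labelled wildtype.

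Nppa was detected in 21 of 108 knockout members and 15 of 28 wildtype members. One cell gave 31.7% of the Nppa UMIs of knockout members and another 50.2% of those of wildtype members, so most canal cells of both libraries held few Nppa UMIs or none. Free Nppa RNA was present as well, since macrophage-marked cells had a Nppa UMI in 5.39% of cells in the library labelled knockout and 23.0% in the library labelled wildtype.

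The gap-junction genes followed. Gja1, which encodes connexin 43, stood in the library labelled knockout at 22.2 CPM in members and 54.7 CPM in the other low-Myl2 cells. In the library labelled wildtype it stood at 16.3 CPM in members and 69.4 CPM in the other low-Myl2 cells. The log2 ratios were -1.30 [-1.73, -0.89] in the library labelled knockout and -2.09 [-3.56, -0.94] in the library labelled wildtype. Gja5, which encodes connexin 40, had log2 ratios of -1.99 [-3.19, -0.97] and -2.27 [-3.91, -1.02] in the same 2 libraries, on 9 member UMIs in the library labelled knockout and 5 in the library labelled wildtype.

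Other genes of working muscle were low in the members too. Cited1, a transcriptional co-regulator of early chamber muscle, had log2 ratios of -1.25 [-1.55, -0.96] in the library labelled knockout and -2.08 [-2.76, -1.47] in the library labelled wildtype. Nppb, the second natriuretic peptide gene, had -1.38 [-1.76, -1.02] and -3.15 [-4.78, -1.91] in that order of libraries. Smpx, which encodes a small muscle protein, had -0.87 [-1.03, -0.72] in the library labelled knockout, short of 2-fold, and -1.90 [-2.28, -1.55] in the library labelled wildtype. Outside the list, the potassium channel gene Kcnd2 and the angiopoietin gene Angpt1 were at least 2-fold lower in both libraries.

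The genes higher in canal cells of both libraries held channel and G protein regulators. Cacna2d2, an auxiliary subunit of calcium channels, had log2 ratios of 1.96 [1.71, 2.22] in the library labelled knockout and 2.18 [1.78, 2.57] in the library labelled wildtype. Its level in members was 160 CPM [145, 175] in the library labelled knockout and 239 CPM [191, 294] in the library labelled wildtype. Rgs6, which shortens G protein signalling and thereby tempers vagal slowing in nodal cells, had 1.72 [1.57, 1.86] in the library labelled knockout and 2.01 [1.81, 2.21] in the library labelled wildtype. It was detected in 94 of 108 knockout members and 26 of 28 wildtype members.

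Rspo3 was also higher in the members than in the other low-Myl2 cells of each library. It stood in the library labelled knockout at 369 CPM [347, 393] in members and 155 CPM in the other low-Myl2 cells, a log2 ratio of 1.25 [1.11, 1.39]. In the library labelled wildtype it stood at 108 CPM [77.5, 148] in members and 35.4 CPM in the other low-Myl2 cells, a log2 ratio of 1.61 [1.04, 2.16]. Sema3c, a guidance ligand, had 1.41 [1.15, 1.68] in the library labelled knockout and 1.14 [0.38, 1.84] in the library labelled wildtype. Perp, a desmosome gene that is also a p53 target, had 1.05 [0.68, 1.43] and 1.48 [0.92, 2.01] in the same libraries.

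Of 7 Bmp targets that reached the minimum, 1 was at least 2-fold higher in the members of both libraries, against 0.245% of all genes. It was Bmper, which binds Bmp ligands outside the cell and had log2 ratios of 1.05 [0.80, 1.30] in the library labelled knockout and 1.72 [0.92, 2.48] in the library labelled wildtype. Smad7, an inhibitor inside the pathway, had 0.94 [0.69, 1.20] in the library labelled knockout and 1.07 [0.43, 1.67] in the library labelled wildtype. The median of the 7 was 0.57 in the library labelled knockout and 1.15 in the library labelled wildtype, against all-gene medians near 0. Bmp2 is among the rule's genes, so its own excess is the rule's doing. Igfbp5, which binds insulin-like growth factors, had 0.89 [0.78, 1.00] in the library labelled knockout and 1.59 [1.40, 1.78] in the library labelled wildtype.

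**Figure D2:**
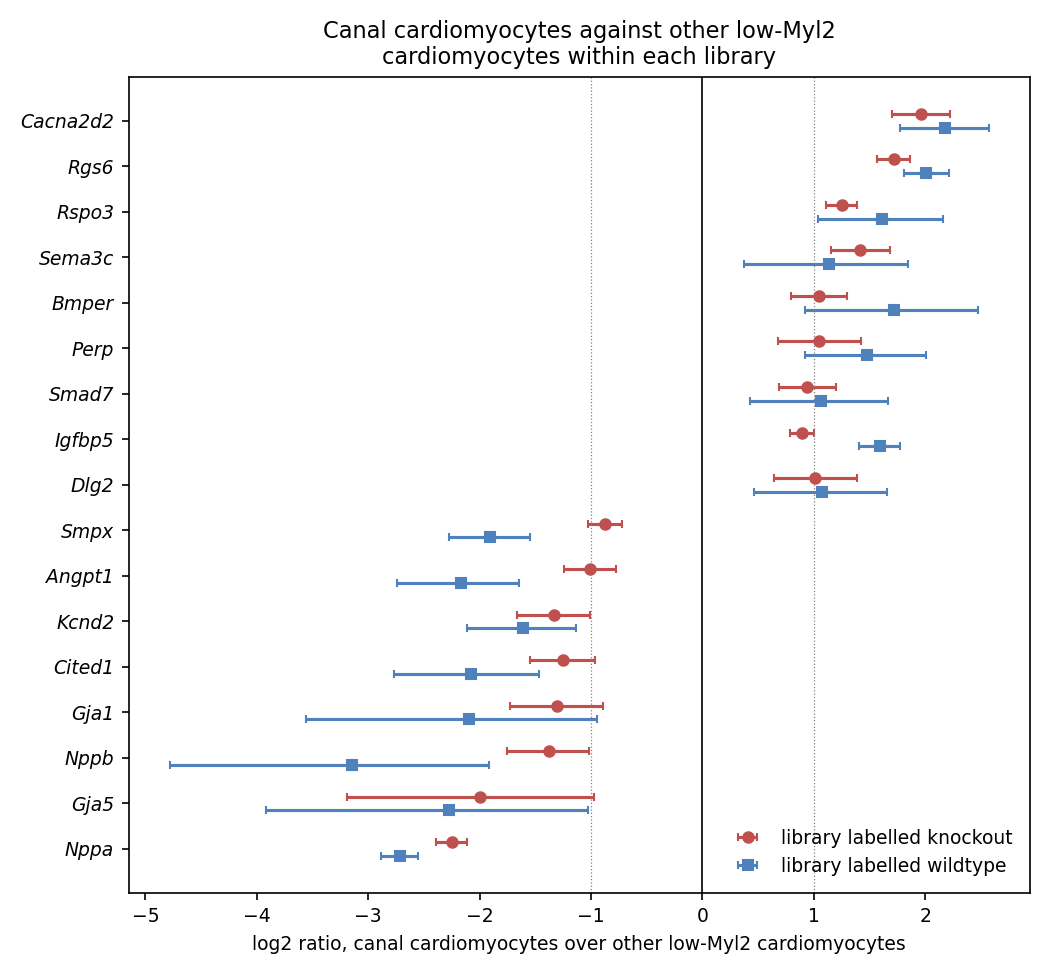
The log2 ratio of canal over other low-Myl2 cardiomyocytes (x axis) is shown for 17 genes in the library labelled knockout (circles) and the library labelled wildtype (squares), with 95% counting intervals and dotted lines at 2-fold. The upper 9 genes lie above 0 and the lower 8 below 0 in both libraries, and the wildtype intervals of Nppb and Gja5 are wide because few UMIs stand behind them.

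Against high-Myl2 cardiomyocytes, which include ventricular muscle (290 knockout and 418 wildtype cells), more genes differed. Of 9272 genes tested, 263 (2.84%) were at least 2-fold higher in the members in both libraries and 41 (0.442%) at least 2-fold lower. Genes of other cell types were among the 263, such as Col1a1, Col3a1, Emcn, Upk3b and Hba-x. Cushion mesenchyme markers, by the limits given above, were found in 25% of knockout and 17.9% of wildtype members. In high-Myl2 cells they were found in 0.69% of knockout and 5.74% of wildtype cells. In the other low-Myl2 cells they were found in 22.8% of knockout and 22.6% of wildtype cells, so they were not particular to the members. The part of such cells in the 263 was not tested. Of the chamber genes, 7 of the 15 that reached the minimum were at least 2-fold lower in both, and the list's medians were -1.59 in the library labelled knockout and -1.45 in the library labelled wildtype. Nppa had a log2 ratio of -1.59 [-1.73, -1.45] in the library labelled knockout and 1.42 [1.25, 1.60] in the library labelled wildtype, so in the library labelled wildtype it was higher in canal than in high-Myl2 cells. Myl2 itself was used by the rule, so genes that travel with it are not independent here.

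Cushion signals were high in the members against high-Myl2 cells. Of 9 genes that reached the minimum, leaving out Bmp2, 6 were at least 2-fold higher in both libraries, against 2.84% of all genes. The medians of the 9 were 2.72 in the library labelled knockout and 1.82 in the library labelled wildtype. Of the Bmp targets 4 of 7 were at least 2-fold higher in both, with medians of 1.12 in the library labelled knockout and 1.87 in the library labelled wildtype. Against the other low-Myl2 cells only 1 of 9 cushion genes, Postn, passed 2-fold in both libraries. Cushion mesenchyme cells express several of these genes, and mesenchyme markers summed to 514 CPM in knockout members and 1017 CPM in wildtype members. Their sums were 411 CPM in knockout and 532 CPM in wildtype other low-Myl2 cells, and 133 CPM in knockout and 215 CPM in wildtype high-Myl2 cells.

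For several canal genes the contrast with high-Myl2 cells was smaller in the library labelled knockout. Cacna2d2 stood at 65.5 CPM [59.3, 72.3] in knockout high-Myl2 cells and 1.95 CPM [1.07, 3.27] in wildtype high-Myl2 cells, where it came from 14 UMIs in 14 cells. Rgs6 stood at 186 CPM in knockout and 46.8 CPM in wildtype high-Myl2 cells, and Igfbp5 at 250 CPM in knockout and 75.4 CPM in wildtype high-Myl2 cells. In the members all 3 were lower in the library labelled knockout, with log2 ratios to wildtype of -0.58 [-0.91, -0.23] for Cacna2d2, -1.003 [-1.18, -0.82] for Rgs6 and -0.74 [-0.91, -0.56] for Igfbp5. With cells over 10% mitochondrial UMIs left out, the ratio of Cacna2d2 turned to 1.08.

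**Figure D3:**
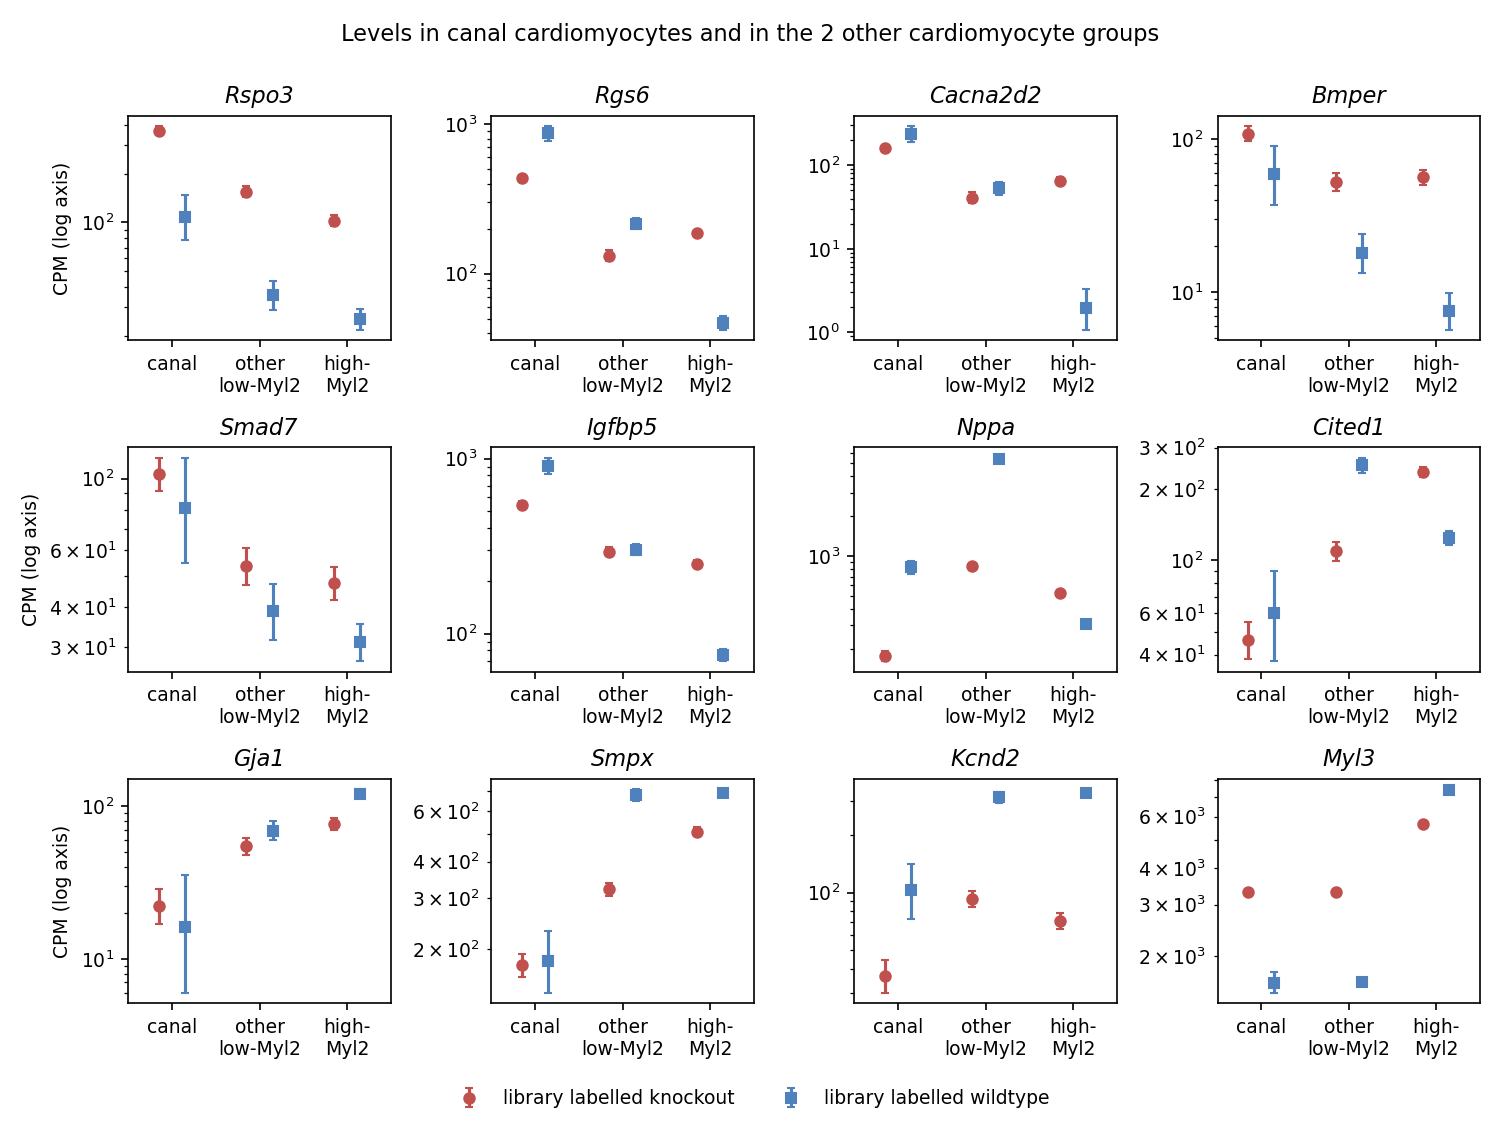
Levels in CPM on log axes with 95% Poisson intervals are shown for 12 genes in canal, other low-Myl2 and high-Myl2 cardiomyocytes, with the library labelled knockout as circles and the library labelled wildtype as squares to its right. Rspo3, Rgs6, Bmper, Smad7 and Igfbp5 are highest in canal cells of both libraries, while Cited1, Gja1, Smpx and Kcnd2 are lowest there.

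The members of the 2 libraries were then compared directly. Of 7524 genes with at least 50 UMIs over the members of both libraries, 534 (7.1%) were at least 2-fold higher in knockout members and 275 (3.65%) at least 2-fold lower. The median gene had a log2 ratio of 0.04. The wildtype side rests on 28 cells, and without the cells that held markers of another class than cardiomyocytes and red cells 134 genes were at least 2-fold lower. The named genes depended most on how depth enters the rule. With the rule applied to thinned cells, which left 49 knockout and 10 wildtype members, 24 of the 46 named genes past 2-fold that kept a ratio were no longer past it, and 9 of these turned. Under each other choice of cells or scaling at most 9 named genes were no longer past 2-fold, but the number that kept a ratio differed. Without cells with markers of another class, red cells included, only 30 named genes past 2-fold kept a ratio. Of these 30, 8 were no longer past it, and 4 of the 8 turned.

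Among the canal regulators, 13 of 16 reached the minimum, with a median log2 ratio of -0.02. Of the 13, 1 was at least 2-fold higher and 2 at least 2-fold lower, against 7.1% and 3.65% of all genes. Rspo3 was the one higher, at 369 CPM [347, 393] in knockout members and 108 CPM [77.5, 148] in wildtype members, a log2 ratio of 1.77 [1.31, 2.26]. It was as much higher in the other low-Myl2 cells (2.13) and the high-Myl2 cells (2.02). Of the wildtype members' 40 Rspo3 UMIs 37.5% came from 1 cell. The transcription factor genes Gata4 (0.11), Gata6 (0.05) and Mef2c (0.25) had intervals that held 0.

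Tbx5, a T-box activator of chamber and conduction genes that opposes Tbx2 and Tbx3, was lower in knockout members. It stood at 61.2 CPM [52.3, 71.2] in knockout members and 155 CPM [117, 200] in wildtype members, a log2 ratio of -1.34 [-1.78, -0.88], and was detected in 49 of 108 knockout and 22 of 28 wildtype members. The ratio was -0.33 with the rule applied to thinned cells. In high-Myl2 cells the ratio was 0.99 [0.68, 1.30]. Of the rule's genes, Tbx2 had 33.9 CPM in knockout and 86.8 CPM in wildtype members, Tbx3 had 45.2 and 43.4 CPM, and Bmp2 had 141 and 144 CPM in the same order. The rule selected on these 3 genes, and a deeper cell needs fewer marker UMIs per 10000 to enter, so their levels are a description. The part of depth in them was not tested.

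Hand2 had a log2 ratio of -0.53 [-0.96, -0.07] and Nkx2-5 of -0.47 [-0.96, 0.06]. Both encode core cardiac transcription factors. With at least 3 marker UMIs asked for, the ratio of Hand2 was 0.11. Bmp4, a ligand of outflow and canal muscle, had -0.13 [-0.63, 0.40], with 2.58 where at least 3 marker UMIs were asked for and -0.78 at 10% mitochondrial UMIs. Msx2, a Bmp-induced homeobox gene of the canal, had 42 UMIs in knockout members and 5 in wildtype members, at 15.3 CPM in knockout and 13.6 CPM in wildtype members.

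The chamber list as a whole had a median log2 ratio of 0.00. At least 2-fold higher in knockout members were 3 of 13 genes and at least 2-fold lower 4, against 7.1% and 3.65% of all genes. Nppa, Sln and Casq2 were among the lower ones. Nppa had a log2 ratio of -2.24 [-2.45, -2.02], Sln, the atrial regulator of the calcium pump, of -3.38 [-4.07, -2.70], and Casq2, the calcium store protein, of -2.17 [-2.96, -1.36]. With the rule applied to thinned cells the ratio of Nppa was -0.58 and that of Casq2 turned to 0.39. Sln stood at 12.02 CPM in knockout and 125 CPM in wildtype members, and was detected in 15 of 108 and 15 of 28 of them. The same 3 genes had ratios of -2.70, -4.18 and -3.31 in the other low-Myl2 cells, in the order given.

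The ventricular genes Myl3 and Myh7 were higher in knockout members. Myl3, a ventricular light chain, stood at 3320 CPM in knockout and 1625 CPM in wildtype members, a log2 ratio of 1.03 [0.91, 1.15]. Myh7, the slow heavy chain, stood at 1485 CPM in knockout and 675 CPM in wildtype members, a ratio of 1.14 [0.95, 1.33], which turned to -0.24 with the rule applied to thinned cells. In high-Myl2 cells both were lower in the library labelled knockout, at -0.39 for Myl3 and -0.80 for Myh7. One wildtype member gave 35.4% of the wildtype Myl3 UMIs and 34.5% of the Myh7 UMIs.

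Sums of chamber markers differed between the members as well. Per cell, 6 ventricular markers (Myl2, Myl3, Myh7, Irx4, Hey2 and Mpped2) summed to a median of 65.2 UMIs per 10000 in knockout members and 8.91 in wildtype members. The 7 atrial markers, Sln and Nr2f1 among them, summed to 3.65 in knockout members and 10.2 in wildtype members. These sums hold the rule's gene Myl2 and the Myl3, Myh7 and Sln reported above, so they are a description and no separate support. Myl2 had a median of 13.6 UMIs per 10000 in knockout members and 1.67 in wildtype members. The atrial marker Nr2f1 had a log2 ratio of -2.47 [-2.99, -1.94]. Which side of the canal the cells came from was not measured, and its part in the ratios was not tested.

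Of 18 conduction genes, 12 reached the minimum, with a median log2 ratio of 0.05. Of the 12, 2 were at least 2-fold higher and 1 at least 2-fold lower, against 7.1% and 3.65% of all genes. Kcnj3, a subunit of the acetylcholine-gated potassium channel, was the one lower, at 45.5 CPM in knockout and 179 CPM in wildtype members, a ratio of -1.97 [-2.42, -1.52], and -0.91 with the rule applied to thinned cells. Cacna1d, an L-type calcium channel subunit of nodal cells, had -0.90 [-1.16, -0.63], with 216 CPM in knockout and 404 CPM in wildtype members. In high-Myl2 cells Kcnj3 had a ratio of 1.22 and Cacna1d of 2.25.

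Gjc1, which encodes connexin 45 of slowly conducting muscle, had a ratio of 0.58 [0.10, 1.10], with 154 CPM in knockout and 103 CPM in wildtype members, and -0.27 with the rule applied to thinned cells. The sodium-calcium exchanger Slc8a1 had 0.41 [0.33, 0.49]. Id2, a Bmp target also needed in the conduction system, had 0.93 [0.59, 1.29]. The calcium pump gene Atp2a2 (-0.11) and its inhibitor Pln (-0.04) had intervals that held 0.

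Bmp targets were higher in knockout members. Of 8 genes that reached the minimum, 7 had a ratio above 0 and 5 an interval above 0, though none passed 2-fold, and the list's median was 0.66 against 0.04 for all genes. Id1, an inhibitor of differentiation induced by Bmp, had 0.75 [0.24, 1.31], the decoy receptor gene Bambi 1.00 [0.52, 1.52], Smad6, an inhibitory Smad, 0.47 [0.01, 0.95], and Id3 -0.24 [-0.55, 0.09]. The list's median was 1.00 in the other low-Myl2 cells and 1.17 in high-Myl2 cells. Per cell thinned to 5000 UMIs, the 10 listed genes summed to a median of 7 UMIs in knockout members and 4 in wildtype members, 4 and 2 in the other low-Myl2 cells, and 3 and 1 in high-Myl2 cells. In each group and each library the members held the most.

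Of the Wnt targets only Lef1 and Znrf3 reached the minimum. Lef1, which encodes a nuclear effector of Wnt signals, stood at 78.7 CPM in knockout and 35.3 CPM in wildtype members, a ratio of 1.16 [0.35, 2.09], against 3.35 in the other low-Myl2 cells and 3.77 in high-Myl2 cells. Hes1, a Notch-induced repressor, had 1.03 [0.07, 2.19] on 137 UMIs in knockout members and 9 in wildtype members.

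Of the cushion signals 3 of 11 genes were at least 2-fold higher in knockout members and 1 at least 2-fold lower, against 7.1% and 3.65% of all genes. The list's median was 0.24. Vcan, the hyaluronan-binding proteoglycan of the cushion matrix, stood at 640 CPM in knockout and 163 CPM in wildtype members, a ratio of 1.98 [1.61, 2.37], and was detected in 95 of 108 and 14 of 28 of them. Tnc, an adhesion-modulating matrix protein, had 1.73 [1.02, 2.55]. Hapln1, which links Vcan to hyaluronan, had 2.53 [1.64, 3.60], but 90% of its 10 wildtype UMIs came from 1 cell. The ratio of Vcan was -0.45 with the rule applied to thinned cells.

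Postn, a mesenchymal matrix gene, was the one lower, with a ratio of -2.13 [-2.70, -1.55], and 1 cell gave 65.1% of its wildtype UMIs. The ligand gene Tgfb2 (0.38 [-0.01, 0.79]) and the fibronectin gene Fn1 (0.24 [-0.04, 0.53]) had intervals that held 0. Cushion mesenchyme markers were found in 27 of 108 knockout members and 5 of 28 wildtype members, as given above, and their part in these ratios was not tested.

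S phase genes, which license and copy DNA, were higher in knockout members. All 22 listed genes reached the minimum and had ratios above 0, 12 with an interval above 0, and 10 were at least 2-fold higher, against 7.1% of all genes. The list's median was 0.89 in the members, 0.19 in the other low-Myl2 cells and -0.03 in high-Myl2 cells. Summed, the list stood at 1260 CPM [1218, 1303] in knockout members and 626 CPM [548, 713] in wildtype members. In other low-Myl2 cells the sum was 1296 CPM for the knockout and 1095 CPM for the wildtype library, and in high-Myl2 cells 1106 CPM for the knockout and 1143 CPM for the wildtype library, so the low value was that of wildtype members.

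Among the S phase genes, Hells, a chromatin remodeller, had a ratio of 3.39 [1.82, 5.68] on 234 UMIs in 61 knockout members and 3 UMIs in 3 wildtype members. Cdc6, which loads the replicative helicase, had 2.78 [0.23, 8.11] on 1 wildtype UMI, and Fen1, a nuclease that trims new DNA strands, had 1.77 [0.17, 4.08] on 3 wildtype UMIs, and -0.20 with the rule applied to thinned cells. The helicase subunit genes Mcm3 and Mcm6 had ratios of 1.56 [0.55, 2.80] and 1.39 [0.43, 2.54]. Uhrf1, which helps to copy DNA methylation, had 1.69 [0.53, 3.16]. Pcna, the sliding clamp, had a ratio of 0.66, short of 2-fold, and -0.15 without cells with markers of another class, red cells included. It was detected in 79 of 108 knockout and 8 of 28 wildtype members, counted without thinning in cells of unlike depth. Per thinned cell the list had a median of 4 UMIs and a maximum of 17 in knockout members, and a median of 2 and a maximum of 13 in wildtype members, with 8.33% of knockout and 11.1% of wildtype cells at 0. With the rule applied to thinned cells the list's median was 0.16 and the ratio of Hells 0.56.

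Genes of mitosis differed less. The median of 24 G2/M genes was 0.26 in the members and -0.43 in high-Myl2 cells, and that of 19 spindle checkpoint genes 0.35 in the members and -0.35 in high-Myl2 cells. With the rule applied to thinned cells the members' medians were -0.23 for G2/M and -0.25 for the spindle checkpoint, and the ratios of Top2a (-0.23), Nusap1 (-0.25) and Incenp (-0.61) turned as well. Ect2, which drives cytokinesis, had 0.98 [0.29, 1.76], Top2a, the topoisomerase of mitotic chromosomes, had 0.74 [0.43, 1.07], Nusap1, a spindle microtubule protein, 0.95 [0.34, 1.62], and Mki67, a marker of cycling cells, 0.13 [-0.29, 0.58]. Mki67 was detected in 58 of 108 knockout and 12 of 28 wildtype members. Of the 19 spindle checkpoint genes, 3 were at least 2-fold higher in knockout members, against 7.1% of all genes. Among the 3 were Kntc1, a kinetochore protein, at 2.43 [0.53, 5.50] on 2 wildtype UMIs and Incenp, a subunit of the chromosomal passenger complex, at 1.57 [0.50, 2.91] on 7 wildtype UMIs. Of the partners of BubR1, Bub1 had a ratio of 0.15 [-0.60, 1.00] and Bub3 of 0.60 [-0.01, 1.26].

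Of 23 p53 targets, 13 reached the minimum, with a median of 0.23. Of the 13, 3 were at least 2-fold higher and 1 at least 2-fold lower, against 7.1% and 3.65% of all genes. Cdkn1a, the p53-induced cell cycle inhibitor, stood at 53.9 CPM in knockout and 46.1 CPM in wildtype members, a ratio of 0.23 [-0.50, 1.04], against 1.87 in the other low-Myl2 cells and 1.45 in high-Myl2 cells. One cell gave 52.9% of its 17 wildtype UMIs. Aen, a p53-induced nuclease, had 2.31 [0.41, 5.39] on 2 wildtype UMIs, and Zmat3, a p53-induced RNA-binding protein, had 1.40 [-0.22, 3.72] on 3. Eda2r, a p53-induced receptor, had 26 UMIs in 16 knockout members and 0 UMIs in wildtype members, where 3 UMIs could have been missed, and it was below the minimum. Perp was the gene at least 2-fold lower, at -1.10 [-1.61, -0.57], and 0.0420 with the rule applied to thinned cells. Cdkn1c, an imprinted cell cycle inhibitor, had 1.08 [0.86, 1.30].

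Sarcomere genes split by isoform. All 25 reached the minimum, with a median of -0.18. Of the 25, 5 were at least 2-fold higher and 1 at least 2-fold lower, against 7.1% and 3.65% of all genes. The actins and an actin-binding protein of immature and smooth muscle were the higher ones, Acta1 at 2.78 [2.23, 3.38], Acta2 at 1.83 [1.64, 2.02] and Tagln at 1.26 [1.03, 1.49], beside Myh7 and Myl3. Acta2 stood at 2241 CPM in 107 of 108 knockout members and 632 CPM in 18 of 28 wildtype members. Myh6, the fast heavy chain of atrial muscle, had -0.78 [-0.88, -0.67], the troponins Tnnt2 and Tnni3 had -0.51 [-0.59, -0.43] and -0.52 [-0.64, -0.40], the second 0.31 with the rule applied to thinned cells, and Myoz2, a Z-disc protein, had -1.54 [-2.10, -0.95].

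Energy genes split as well. Of 18 glycolysis genes that reached the minimum 14 had ratios above 0 and 4 were at least 2-fold higher, against 7.1% of all genes. The list's median was 0.37 in the members and -0.24 in high-Myl2 cells. Slc2a1, the main fetal glucose transporter, stood at 437 CPM in knockout and 138 CPM in wildtype members, a ratio of 1.66 [1.25, 2.09], and was as high in the other low-Myl2 (1.69) and high-Myl2 cells (1.31). The enolase gene Eno1 had 1.23 [0.83, 1.66] and the heart-type lactate dehydrogenase gene Ldhb -0.98 [-1.22, -0.72]. The nuclear genes of oxidative phosphorylation were level, with a median of 0.03 and none of 26 past 2-fold.

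Of 7 creatine kinase and myoglobin genes, 4 reached the minimum, with a median of -0.52. Of the 4, 1 was at least 2-fold higher and 1 at least 2-fold lower, against 7.1% and 3.65% of all genes. The median was 0.84 with the rule applied to thinned cells and 0.0048 without cells with markers of another class than red cells. Mb, which encodes myoglobin, stood at 12.4 CPM in knockout and 184 CPM in wildtype members, a ratio of -3.90 [-4.53, -3.28], and -4.06 in high-Myl2 cells. In the members 1 cell gave 64.7% of the wildtype Mb UMIs, and the ratio of Mb was -0.63 with Myl2 under 30 per 10000. Ckm, the muscle creatine kinase, had 3 UMIs in knockout and 15 UMIs in wildtype members. Fabp3, a fatty acid carrier, had -0.94 [-1.12, -0.75], while the brain-type creatine kinase gene Ckb had 1.27 [0.72, 1.87].

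Genes that decline as embryonic tissues mature were by median higher in knockout members, and no less so in the other cardiomyocytes. The list's median ratio was 0.50 in the members, 0.70 in the other low-Myl2 cells and 0.67 in high-Myl2 cells. Of 10 stage genes that reached the minimum in members, 4 were at least 2-fold higher and none at least 2-fold lower, against 7.1% and 3.65% of all genes. Hmga2, a chromatin protein of early embryos, stood at 279 CPM [260, 300] in 80 of 108 knockout members and 43.4 CPM [24.8, 70.5] in 4 of 28 wildtype members, a ratio of 2.69 [1.98, 3.50], with 2.22 in high-Myl2 cells. The ratio of Hmga2 was 0.39 with the rule applied to thinned cells. In thinned macrophage-marked cells Hmga2 was detected in 38.9% [31.3, 46.9] of knockout and 9.32% [5.93, 13.8] of wildtype cells, so its difference was not particular to heart muscle. Trim71, an RNA-binding regulator of developmental timing, had 55 UMIs in 38 knockout members and 0 in wildtype members, where 3 UMIs could have been missed. Dlk1, an imprinted Notch ligand, had 2.48 [1.49, 3.71] on 8 wildtype UMIs, and the growth factor gene Igf2 had -0.80 [-1.01, -0.58]. The labels give the same embryonic day for both libraries, and a difference in the stage of the pooled embryos was not tested.

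**Figure D4:**
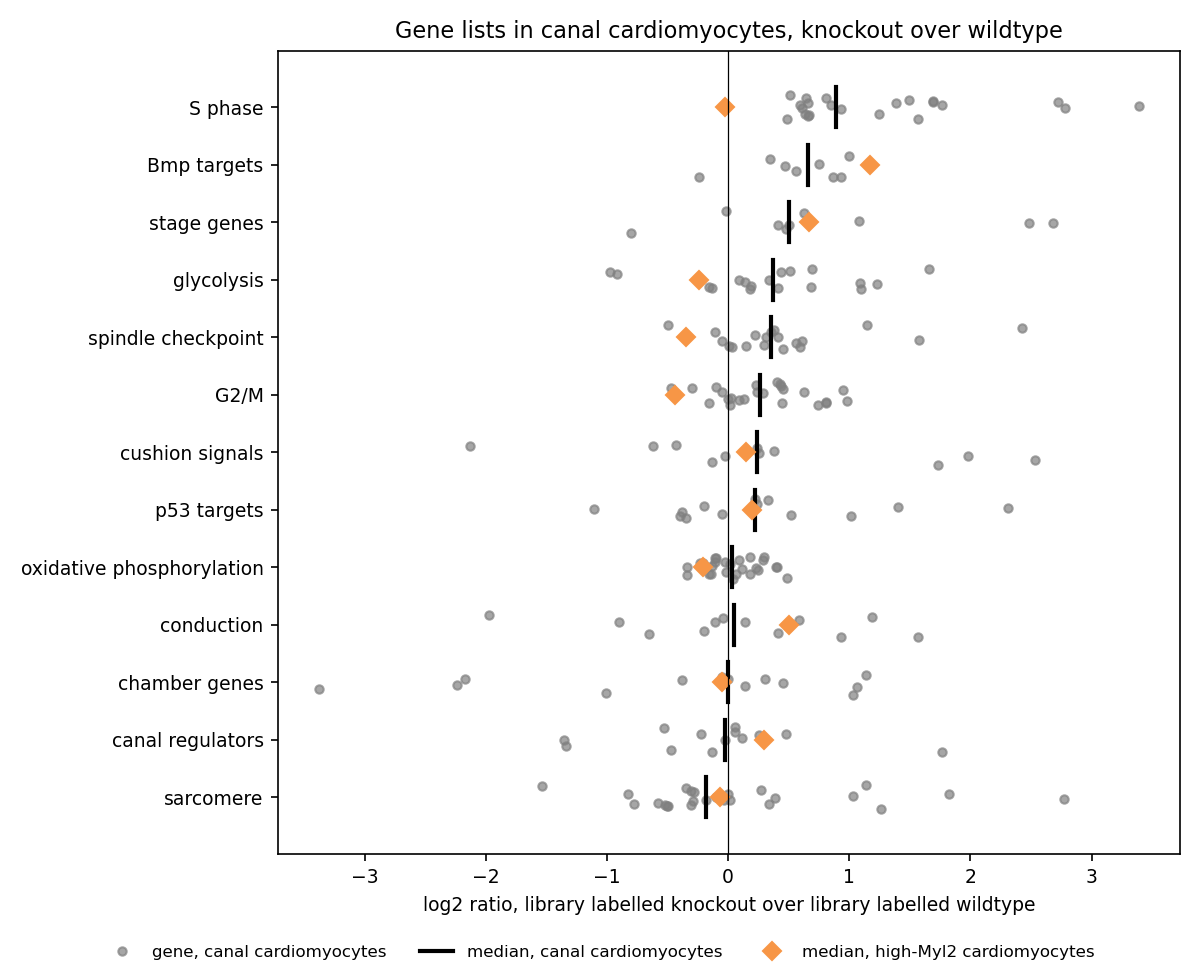
Log2 ratios of the library labelled knockout over the library labelled wildtype are shown for the genes of 13 lists in canal cardiomyocytes (grey points, black bar at the median) beside the list's median in high-Myl2 cells (diamond). The S phase genes all lie above 0 in canal cells with a median of 0.89, while their median in high-Myl2 cells is -0.03, and the Bmp targets are above 0 by median in both.

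The genes with the largest ratios included markers of other tissues. Afp and Rbp4, secreted proteins of the liver and yolk sac, were at 0 in wildtype members and had 527 and 218 UMIs in knockout members, of which 73.1% and 66.5% came from 1 cell each. The epicardial genes Tbx18 and Wt1 had ratios of 3.01 [1.77, 4.64] and 2.73 [1.35, 4.62], found in 38 and 39 of 108 knockout members and 3 and 2 of 28 wildtype members. Tbx18 also marks sinus horn and septal muscle. Epicardial markers summed to 546 CPM in knockout and 214 CPM in wildtype members. Without the cells that held markers of another class, red cells included, the ratio of Tbx18 was -1.08.

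Krt8, a keratin of simple epithelia, had a ratio of 4.18 [2.31, 7.23], with 269 UMIs in 61 of 108 knockout members and 2 UMIs in 1 of 28 wildtype members. It was also higher in the other low-Myl2 cells (3.32) and in high-Myl2 cells (2.34). Epicardial markers summed to 513 CPM in knockout and 227 CPM in wildtype other low-Myl2 cells, and to 78.7 CPM in knockout and 170 CPM in wildtype high-Myl2 cells. Ctnnd2, a neural catenin, had 4.02 [2.15, 7.08] and was found in 53 of 108 knockout and 2 of 28 wildtype members. Rhou, a Wnt-induced small GTPase, had 3.45 [1.58, 6.51], and Clstn2, a synaptic cadherin-like protein, 4.39 [1.89, 9.70], each on 1 or 2 wildtype UMIs. Clstn2 had -0.0276 with the rule applied to thinned cells.

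The lowest ratios were those of matrix genes of arterial wall. Eln, which encodes elastin, had -5.52 [-6.15, -4.93] and Mgp, an inhibitor of calcification, -5.49 [-6.23, -4.82], but 1 cell gave 61.0% and 51.2% of the wildtype UMIs, and both were lower in high-Myl2 cells too (-4.12 and -4.49). Negr1 had -3.28 with 90% of the wildtype UMIs from 1 cell. Mlf1 was spread more evenly, at 30.6 CPM in 45 of 108 knockout members and 252 CPM in 19 of 28 wildtype members, a ratio of -3.04 [-3.49, -2.60], with -3.05 in the other low-Myl2 cells and -3.25 in high-Myl2 cells, and -0.99 in members with the rule applied to thinned cells. Eef1a2, the muscle and neural form of a translation elongation factor, stood at 24.4 CPM in 43 of 108 knockout members and 152 CPM in 20 of 28 wildtype members, a ratio of -2.64 [-3.17, -2.10].

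**Figure D5:**
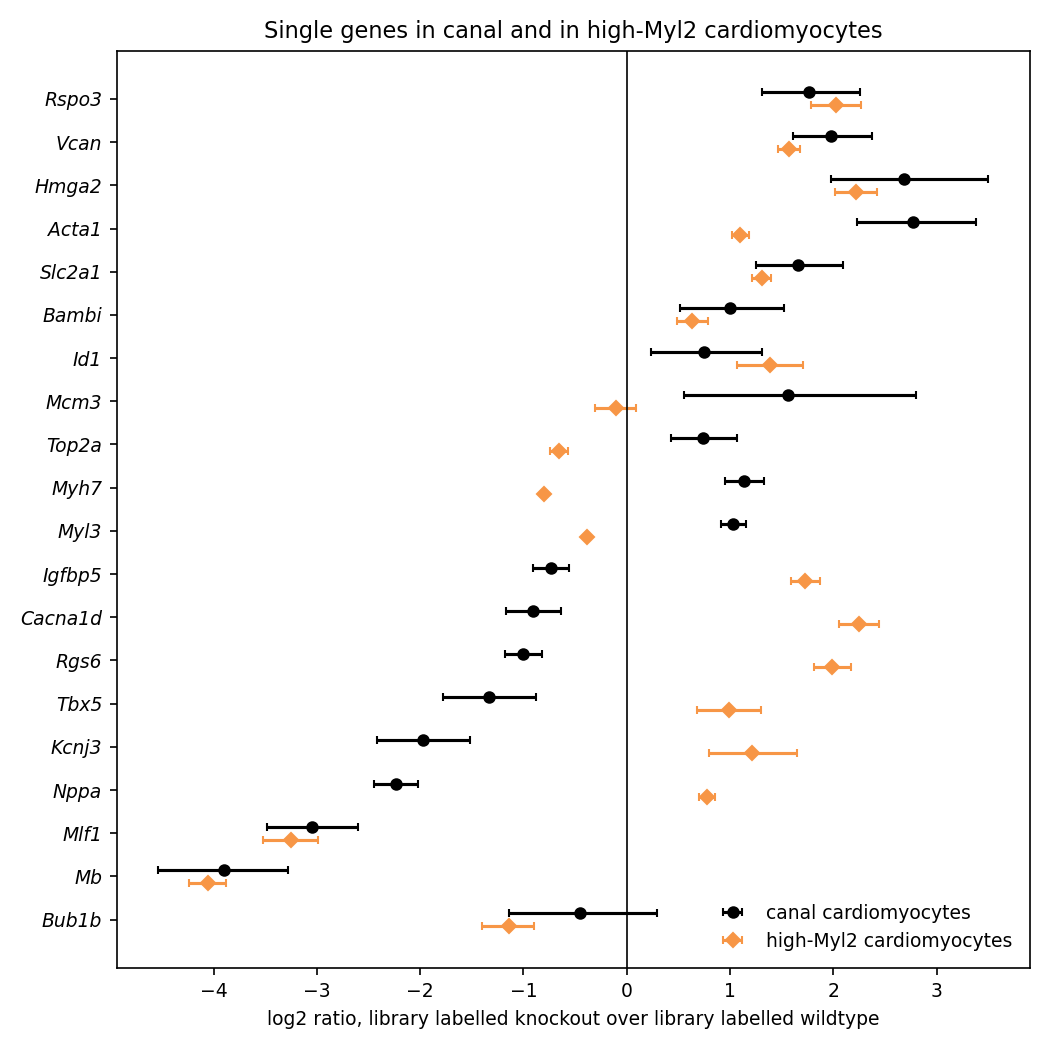
Log2 ratios of the library labelled knockout over the library labelled wildtype are shown for 20 genes in canal cardiomyocytes (black circles) and high-Myl2 cardiomyocytes (orange diamonds), with 95% counting intervals. Rspo3, Vcan, Hmga2, Slc2a1, Mlf1 and Mb lie on the same side in both groups, while Top2a, Myh7, Myl3, Igfbp5, Cacna1d, Rgs6, Tbx5, Kcnj3 and Nppa lie on opposite sides.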

How the data were processed

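The authors deposited a UMI count for each gene in each barcode, made with Cell Ranger 7.1.0 on build mm10 per the submitters' processing notes, not normalized and with empty barcodes kept. Cells had at least 3000 UMIs and 500 genes, at most 20% mitochondrial UMIs and under 20% hemoglobin UMIs. UMIs were summed per library and cell group and scaled to CPM. Ratios are log2 of knockout over wildtype CPM with an exact conditional binomial interval, levels have an exact Poisson interval and shares a Clopper-Pearson interval, all at 95%; intervals and floors cover counting error only. A gene counted as at least 2-fold different needed 50 UMIs over both libraries, and a gene at 0 on one side was set at a floor of 3 counts there. No doublets were removed in the main analysis. Scrublet in scanpy 1.11.5 scored them for an alternative that removed 0.8% per 1000 cells. Cells were thinned to 5000 UMIs with seed 1, leaving out 1 wildtype member. Free RNA was read from barcodes of 10 to 100 UMIs. The ratio and its interval were tested on simulated data. Genes were placed with GENCODE vM21.

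The members and the 18 gene lists were chosen with earlier results of these data known. Named genes were the rule's and canal, chamber, conduction and cushion genes, 2 to 4 leading members of other lists, the 12 highest and 12 lowest ratios between the libraries and the 10 highest and 10 lowest between canal and other low-Myl2 cells, among genes of 50 UMIs and 50 CPM without mitochondrial, ribosomal, hemoglobin, Y-linked and unnamed genes. Smad6, Id3, Mcm3, Mcm6, Uhrf1, Pcna, Top2a, Mki67, Bub1, Bub3, Eda2r, Acta2, Tagln, Tnnt2, Tnni3, Ldhb, Ckm, Trim71, Igf2, Xist and the cell type markers lie outside this rule and were chosen after their values were seen. Lists differ in size and share genes. Some list members are not reported here. Alternatives changed the filters, the rule, the scaling, the minimum and the fold.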

Additional observations from a re-analysis of the deposited data

Results flagged for a closer look

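Among the genes named here, 17 had knockout over wildtype log2 ratios with counting intervals on opposite sides of 0 in canal and high-Myl2 cardiomyocytes. The share over all genes is not given here, and some of the 17 were named for their large ratios. The difference between the groups of cells was not tested, since there was 1 library per genotype. Lower in knockout canal cells and higher in knockout high-Myl2 cells were 8 of them. Cacna1d had -0.90 in canal and 2.25 in high-Myl2 cells, Cacna2d2 had -0.58 and 5.07, Igfbp5 had -0.74 and 1.73, Kcnj3 had -1.97 and 1.22, Rgs6 had -1.0 and 1.99, and Tbx5 had -1.34 and 0.99 in the same order. Cacna1d also had 0.94 in the other low-Myl2 cells. Nppa (-2.24 in canal and 0.78 in high-Myl2 cells) and Myh6 (-0.78 and 0.61) had the same signs. The canal ratio of Nppa rests on the few wildtype members that held most of its UMIs.

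The ventricular genes Myh7 (1.14 in canal and -0.80 in high-Myl2 cells) and Myl3 (1.03 and -0.39) had the opposite ones. So did the mitotic genes Top2a (0.74 and -0.66), Nusap1 (0.95 and -0.29), Ect2 (0.98 and -0.43), Incenp (1.57 and -0.64) and Kntc1 (2.43 and -0.93). Tbx18 had 3.01 in canal and -0.68 in high-Myl2 cells, and Rhou had 3.45 and -0.62. In the high-Myl2 cells the rule did not select on canal markers, and Myl2 itself was limited on opposite sides in the groups. The canal ratios of Myh7, Top2a, Nusap1 and Incenp turned with the rule applied to thinned cells. That of Tbx18 turned without cells with markers of another class, and that of Cacna2d2 at 10% mitochondrial UMIs.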

How the results depend on the processing

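No paired analysis was possible because there was 1 library per genotype, and for the same reason no replicate could be left out. The share of members was 11.7% of Ttn-positive knockout cells and 2.31% of wildtype cells with at least 3 marker UMIs, and 7.77% and 1.61% with the rule on thinned cells. In knockout cells it was 11.7% with Myl2 under 30 and 20.9% with Shox2 not used. The knockout share was the higher in all of these. The cause of the changes below was not tested, but the rule on thinned cells left 49 knockout and 10 wildtype members, and removal of every cell with markers of another class left 12 and 5.

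The number of genes at least 2-fold higher in knockout members was 354 without the highest doublet scores, 113 without cells with markers of another class, 909, 229 and 1031 with a minimum of 20 UMIs, 100 UMIs and none, 1289 at 1.5-fold, and 324 where the interval also had to leave out 0. The number at least 2-fold lower was 177 with at least 3 marker UMIs, 183 with the rule on thinned cells, 40 without cells with markers of another class, 523 with free RNA subtracted, 612, 111 and 1267 with the 3 minimums, 851 at 1.5-fold, and 134 without cells with markers of another class than red cells, an alternative chosen after seeing the data. Between canal and other low-Myl2 cells, 11 genes were higher and 10 lower in both libraries at 10% mitochondrial UMIs, 11 higher with at least 3 marker UMIs, 6 higher and 5 lower without cells with markers of another class, 28 and 34 by the mean of single-cell CPM, and 33 and 27, 10 and 8, and 97 and 40 with the 3 minimums.

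Signs of some log2 ratios turned. The Notch median was 0.0410 with at least 3 marker UMIs, 0.61 with Myl2 under 30, 1.16 without the highest doublet scores, 0.45 at 100 UMIs, and 3.29 without cells with markers of another class than red cells, where the creatine kinase and myoglobin median was 0.0048. On thinned cells the medians were -0.0430 for Wnt, -0.25 for the spindle checkpoint, -0.23 for G2/M and 0.84 for creatine kinase and myoglobin. The G2/M median was -0.10 with Shox2 not used, and the heat shock median -0.000415 with no minimum. On thinned cells the ratios were -0.0276 for Clstn2, 0.0420 for Perp, -1.10 for Bmper, 1.53 for Kcnd2, -0.24 for Myh7, 0.39 for Casq2, -0.27 for Gjc1, -0.45 for Vcan, -0.23 for Top2a, -0.25 for Nusap1, 0.31 for Tnni3, -0.61 for Incenp and -0.20 for Fen1. With Myl2 under 30, Bmper had -0.19 and Kcnd2 0.15. Without cells with markers of another class, Tbx18 had -1.08, Smad6 -0.34, Mcm3 and Aen -0.49, Pcna -0.15 and Uhrf1 -0.0760. Cacna2d2 had 1.08 at 10% mitochondrial UMIs, and Hand2 0.11 with at least 3 marker UMIs.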

Other observations

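Xist, the RNA of the inactive X chromosome, stood at 573 CPM in knockout members and 149 CPM in wildtype members, and the labels do not give the sex of the pooled embryos. Among heat shock and early genes, 6 of 13 reached the minimum, with a median log2 ratio of 0.42. Of the 6, 1 was at least 2-fold higher in knockout members, against 7.1% of all genes. Hsp90aa1, a chaperone gene, had 1139 CPM in knockout members and 724 CPM in wildtype members, a log2 ratio of 0.65 [0.47, 0.84]. Ier2, an immediate early gene, had 1.67 [0.06, 3.98] on 71 UMIs in knockout members and 3 UMIs in wildtype members. Shox2-positive low-Myl2 cardiomyocytes, which the rule leaves out, numbered 58 in the library labelled knockout and 25 in the library labelled wildtype.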
